A study of Mus musculus with 2 samples.

Results

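The heat shock genes described here are 10 chaperone genes of the cytosol and the mitochondria: Hspa1a, Hspa1b, Hspa8, Dnajb1, Hsph1, Bag3, Hsp90aa1, Hspb1, Hspd1 and Hspe1. They were picked by symbol as known targets of the transcription factor HSF1 that act outside the endoplasmic reticulum (ER), and all 10 are among the 24054 genes of the deposited TPM table. The rule used no measured value. Liver RNA of male C57BL/6 mice aged 8 to 12 weeks was compared between wild type (WT) mice and Pgrmc1 KO (Pgrmc1 -/Y) mice. The KO mice lack exons 1 and 2 of the X-linked Pgrmc1 gene in the whole animal, after a floxed allele made in C57BL/6N was crossed to Sox2-Cre, which acts in the early embryo and leaves the deletion in every tissue. RNA of 5 mice per genotype was pooled, 2.5 μg from each, and sequenced as 1 library per genotype. The spread between mice was therefore not measured, no p-value was computed, and a difference given here is one between 2 libraries.

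HSF1 is held inactive in unstressed cells, and when unfolded protein builds up in the cytosol it forms trimers that bind repeats of GAA at chaperone promoters. HSP70 proteins such as those of Hspa8, Hspa1a and Hspa1b bind exposed stretches of unfolded chains, J-domain proteins such as Dnajb1 deliver clients to them, and exchange factors such as Hsph1 and Bag3 release them again. HSP90 matures signalling proteins and steroid receptors, small heat shock proteins such as Hspb1 hold unfolded chains in solution, and Hspd1 with its lid Hspe1 folds proteins inside mitochondria. Pgrmc1 itself, a heme-binding protein of the ER membrane that binds cytochromes P450, measured 0.68 TPM in the KO pool against 949.49 TPM in WT, as the labels of the libraries require.

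TPM is a gene's share of the transcript pool per transcript length, by definition scaled to a fixed total. The deposited columns add up to 1005325 (KO) and 994702 (WT) and so do not share 1 total. A second deposited table gives a mean per library in reads divided by a size factor, from which 22086707 reads in KO and 29710376 in WT were estimated. Changes are log2((KO TPM + 1)/(WT TPM + 1)), which compresses the differences of weakly expressed genes. Each interval is a 95% Clopper-Pearson interval around the log2 ratio of those means. It was computed on estimated reads and holds counting error alone, with no part for the variation among mice. In bulk tissue, fewer cells of a type and less RNA per cell cannot be told apart. The 10 hepatocyte markers, which define the labelled tissue, together made up 115307 TPM of the KO and 117752 TPM of the WT library.

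None of the 10 heat shock genes passed the fold threshold used here, a ratio of TPM + 1 that is 1.4 or more upward or 0.6 or less downward. It takes the size of change from the study (40%) and leaves out the probability that the study also required. On the authors' means with 1 added, Hspa1a passed it downward. Among the 11623 genes averaging 1 TPM or more across the libraries (the expressed genes), 1.09% passed it upward and 0.301% downward, so 0 of 10 is near that background. Hspa1a, Hspa8, Dnajb1, Hsph1, Bag3 and Hsp90aa1 were lower in KO, from -0.54 for Hspa1a to -0.16 for Hsp90aa1 on the log2 scale. For Hspa1b (-0.02), Hspd1 (0.01), Hspe1 (0.04) and Hspb1 (0.07) the counting interval holds 0. For 6 of the 10 genes the counting interval lay wholly below 0, against 13.4% of the 11542 expressed genes with deposited means, and for 0 of the 10 it lay above 0, against 11.7% of them. Hspa1a is 1 of the 6, and summed with its near-copy Hspa1b its interval holds 0 (-0.20 to 0.05). Abundant genes have narrow intervals. Over genes averaging 10 TPM or more the share with an interval below 0 was 18.8%, and 5 of the 9 heat shock genes at that level had one.

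**Figure D1:**
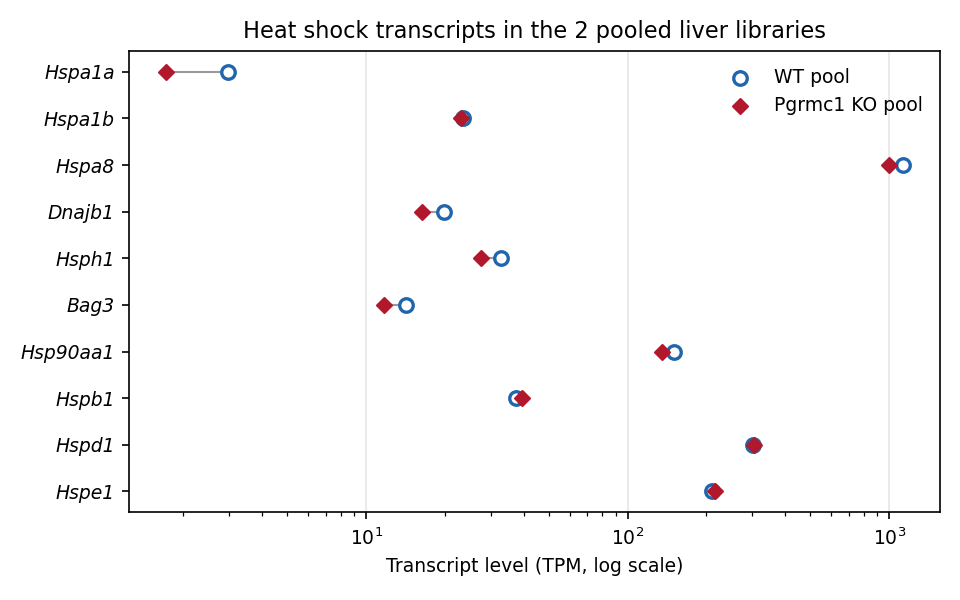
Level of each heat shock transcript in TPM (log axis) in the pooled WT library (open circles) and the pooled Pgrmc1 KO library (diamonds), joined by a line. The KO diamond lies left of the WT circle for Hspa1a, Bag3, Dnajb1, Hsph1, Hspa8 and Hsp90aa1, and both symbols nearly coincide for Hspa1b, Hspb1, Hspd1 and Hspe1.

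Hspa8, the constitutive HSP70 of the cytosol that also strips clathrin from vesicles, was by far the most abundant of the 10, at 1000.34 TPM in the KO pool against 1128.66 TPM in WT. It carried 56.4% of their summed TPM in KO and 58.7% in WT. In log2 terms the KO library was lower by 0.17 (fold 0.886), with an interval of -0.18 to -0.14 on 27271 and 41147 estimated reads. Hspa8 lies on chromosome 9, 40800984 to 40810087, plus strand (GRCm38, the mm10 assembly), with 9 exons in its main transcript. Of its 100-base transcript windows, 28.2% also occur in other annotated genes, mostly Gm15459, and none of those genes is in the TPM table.

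Hspa1a and Hspa1b encode the stress-inducible HSP70. They are neighbours on chromosome 17, minus strand, at 34969190 to 34972156 and 34956436 to 34959238, and each is a single exon. In background terms, a gene without introns can be expressed under stress without splicing. Their RefSeq promoters are printed here because the copies are nearly the same up to the start site: 247 of the 250 bases upstream are identical. The sequences run 5′ to 3′ on the minus strand of GRCm38.p6, at chr17:34972157-34972406 for Hspa1a and chr17:34959239-34959488 for Hspa1b, and capitals mark the bases at which the copies differ.
Hspa1a: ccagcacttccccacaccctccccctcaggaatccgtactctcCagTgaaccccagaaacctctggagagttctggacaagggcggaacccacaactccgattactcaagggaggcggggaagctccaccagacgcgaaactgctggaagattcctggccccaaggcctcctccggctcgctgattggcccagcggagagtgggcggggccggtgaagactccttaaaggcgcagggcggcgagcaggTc
Hspa1b: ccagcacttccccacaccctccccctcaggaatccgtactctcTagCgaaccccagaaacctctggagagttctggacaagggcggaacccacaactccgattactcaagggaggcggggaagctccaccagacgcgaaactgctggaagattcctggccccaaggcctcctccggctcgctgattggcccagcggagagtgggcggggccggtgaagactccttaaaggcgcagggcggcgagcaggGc

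The transcripts are alike too. Of the 100-base windows of Hspa1a, 47.1% are also in Hspa1b, and 49.9% of those of Hspa1b are in Hspa1a, so RSEM may divide reads from there between both and the values of the single copies are uncertain. Hspa1a was at 1.72 TPM (KO) and 2.96 TPM (WT), a log2 change of -0.54, on 62.1 and 146 estimated reads (interval -1.25 to -0.36). It is the largest difference of the 10 genes and rests on the fewest reads. Hspa1b was at 23.37 TPM in the WT pool and 23.04 TPM in that of KO, a log2 change of -0.02 whose interval of -0.13 to 0.12 holds 0. Hspa1a supplied 6.95% of the summed TPM of both copies in KO and 11.2% in WT. The sum itself was 24.76 TPM in the KO pool against 26.33 TPM in WT, a log2 change of -0.09, and its interval of -0.20 to 0.05 holds 0. A difference in inducible HSP70 as a whole was thus not detectable at this depth. With 0.1 TPM as pseudocount, with the authors' means, or with 1/1.4 as the lower threshold, Hspa1a alone of the 10 passed downward.

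The helpers Dnajb1, Hsph1 and Bag3 were lower in KO by nearly the same amount. Dnajb1, a J-domain protein induced in the heat shock response, was at 16.43 TPM (KO) and 19.90 TPM (WT), a log2 change of -0.26 (interval -0.43 to -0.10). Hsph1, the HSP110 that exchanges the nucleotide of HSP70 and helps dissolve aggregates, was at 32.67 TPM in the WT pool and 27.38 TPM in that of KO, a change of -0.25 (interval -0.35 to -0.14). Bag3, which links HSP70 and small heat shock proteins to autophagy, was at 11.69 TPM in the KO pool against 14.24 TPM in WT, with a log2 ratio of -0.26 (interval -0.45 to -0.09). None of these intervals holds 0, and none of the 3 transcripts shares a 100-base window with another gene. Lower changes than those of these 3 genes were held by 5.44% to 6.44% of expressed genes. Dnajb1 lies on chromosome 8 (83608193 to 83612653, plus strand), Hsph1 on chromosome 5 (149614287 to 149636376, minus strand) and Bag3 on chromosome 7 (128523616 to 128546981, plus strand).

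Hsp90aa1, the inducible HSP90 of the cytosol (chromosome 12, 110690605 to 110702728, minus strand), was at 134.86 TPM (KO) and 150.95 TPM (WT). Its log2 change of -0.16 had an interval of -0.20 to -0.10. The constitutive paralog Hsp90ab1, which is not one of the 10, was at 426.70 TPM in the WT pool and 407.99 TPM in that of KO, a change of -0.06 (interval -0.08 to -0.02). The ratio of Hsp90ab1 to Hsp90aa1 was 3.03 in KO and 2.83 in WT. For Hsp90aa1, 38.0% of the 100-base windows are shared with annotated genes that the TPM table does not list.

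Hspb1, the small heat shock protein HSP25 of the mouse (chromosome 5, 135887919 to 135889563, plus strand), had no clear direction between the libraries. It was at 39.36 TPM in the KO pool against 37.55 TPM in WT, a log2 change of 0.07, and its interval of -0.10 to 0.28 holds 0 on 405 and 514 estimated reads. The change of Dnajb1 (-0.26) lies outside that interval, but the intervals of both genes reach -0.10 and hold counting error alone. Of its 100-base windows, 44.0% also occur in the pseudogene Hsp25-ps1, which the TPM table does not list.

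The mitochondrial chaperonin was level between the libraries. Hspd1, the HSP60 that forms the folding chamber, was at 303.56 TPM (KO) and 302.09 TPM (WT), a log2 change of 0.01 (interval -0.02 to 0.06). Hspe1, the HSP10 lid of that chamber, was at 210.27 TPM in the WT pool and 216.02 TPM in that of KO, a change of 0.04 (interval -0.02 to 0.15). The TPM of Hspd1 was 1.41 times that of Hspe1 in KO and 1.44 times in WT. Both intervals hold 0, and the change of Hspa8 (-0.17) lies outside both. They hold counting error alone, so such a difference between mice is not excluded. The genes lie head to head on chromosome 1, Hspd1 on the minus strand (55077835 to 55088243) and Hspe1 on the plus strand (55088132 to 55091307), so their annotated 5′ ends overlap. Reads there can be assigned only by strand, which the library kit keeps. Annotated copies outside the TPM table share 23.4% of the 100-base windows of Hspd1 and a smaller part of those of Hspe1.

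The order of the levels was the same in both libraries. From high to low it ran Hspa8, Hspd1, Hspe1, Hsp90aa1, Hspb1, Hsph1, Hspa1b, Dnajb1, Bag3, Hspa1a. Whether neighbours such as Hsph1 and Hspa1b differ beyond the spread between mice cannot be said from pools. The summed TPM of the 10 was 1774 in KO and 1923 in WT, a ratio of 0.923, or 0.177% and 0.193% of all TPM. Of the difference of -148 TPM, -128 TPM was that of Hspa8, and without it the ratio of the sums was 0.975. The median log2 change of the 10 was -0.17, against -0.01 over all expressed genes, and 7 of the 10 lay below 0, against 53.8% of those genes. The central 90% of them, between the 5th and the 95th percentile, ran from -0.27 to 0.27, and every heat shock gene other than Hspa1a lay inside it. Over genes averaging 10 TPM or more that range was narrower, from -0.25 to 0.20. Dnajb1 and Bag3 (both -0.26) lay below it, and Hsph1 (-0.25) lay at its lower edge.

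**Figure D2:**
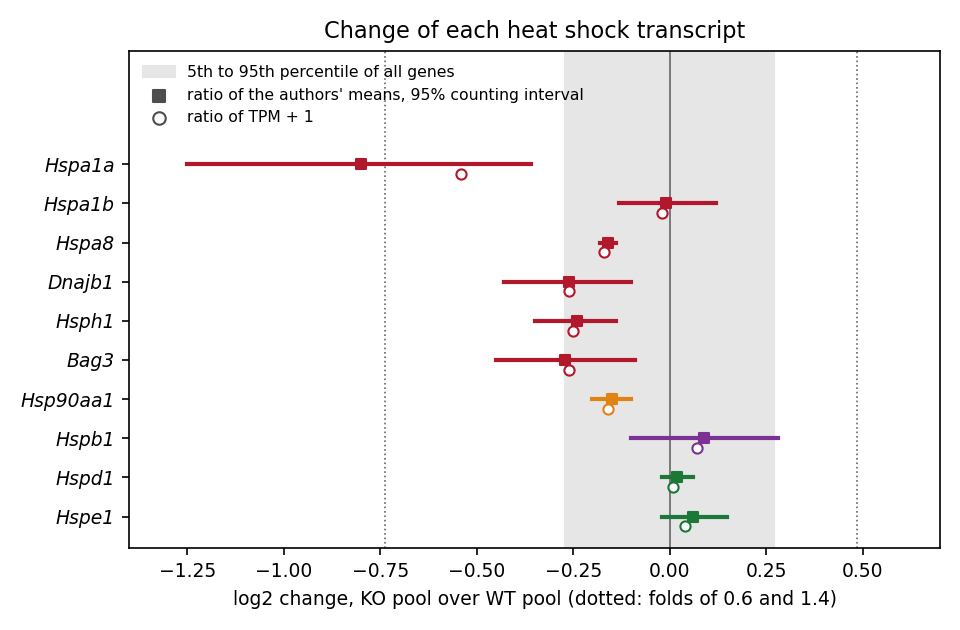
Change of each heat shock transcript (log2, KO pool over WT pool). Squares give the ratio of the authors' means with its 95% counting interval, open circles the ratio of TPM + 1, and colours the role (red HSP70 system, orange HSP90, purple small heat shock protein, green mitochondrial chaperonin). The intervals of Hspa1a, Hspa8, Dnajb1, Hsph1, Bag3 and Hsp90aa1 lie below 0, and those of Hspa1b, Hspb1, Hspd1 and Hspe1 cross it. The grey band is the 5th to 95th percentile of all genes, and dotted lines mark folds of 0.6 and 1.4.

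**Figure D3:**
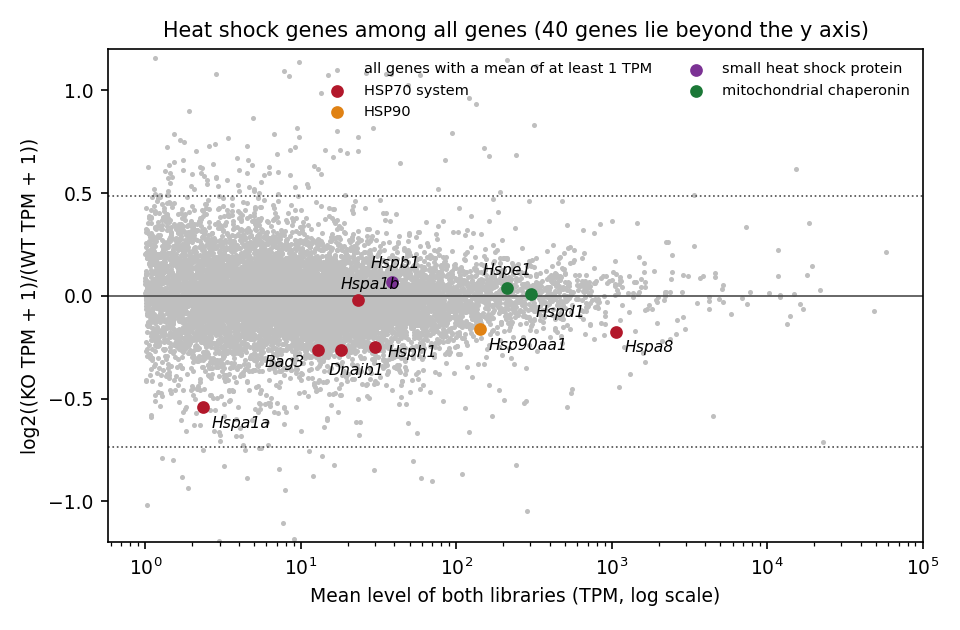
Mean level of both libraries (TPM, log axis) against log2((KO TPM + 1)/(WT TPM + 1)) for all 11623 expressed genes (grey) and for the 10 heat shock genes (coloured by role). No heat shock gene lies beyond the dotted lines at folds of 0.6 and 1.4, and Hspa1a, the lowest in level, is nearest to the lower one. The y axis leaves out 40 genes.

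The upstream sequences of the 10 genes were searched for the element that HSF1 binds. The genes were chosen as known HSF1 targets, so matches describe them and are no independent finding. RefSeq promoters were matched for 8 of the 10 by symbol, not for Hspa8 and Hsp90aa1. The motif of 3 units, GAANNTTCNNGAA, was searched on both strands in the 250 bases before each start, with overlapping matches counted. It was found for Hspd1 and Hspe1, which share 1 stretch of DNA between them, and in 0.514% of all 27025 genes with a promoter. Both palindromic motifs of 2 units are part of it where they overlap. TTCNNGAA was found for 3 of the 8 genes (8.11% of all genes) and GAANNTTC for 5 of the 8 (7.73%). GGGCGG, the GC box, was found for all 8 (35.4%), CCAAT for 4 (37.5%) and TATAAA for 0 (14.3%). The stretches with GAA units are printed because they show which promoters carry the fullest match, with the matched letters in capitals and 6 bases on each side, 5′ to 3′ on the strand of the gene.
Hspe1: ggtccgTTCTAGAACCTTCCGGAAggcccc
Hspd1: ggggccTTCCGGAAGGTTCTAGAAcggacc
Hsph1: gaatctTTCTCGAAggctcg
Hspa1a and Hspa1b: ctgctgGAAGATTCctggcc
Hspb1: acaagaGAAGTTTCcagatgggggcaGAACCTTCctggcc

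The Hspe1 and Hspd1 lines are the same DNA read from opposite strands, where 4 GAA units follow each other. For Hspd1 it lies between its 2 listed starts, upstream of the second and downstream of the first. Dnajb1 and Bag3 had no match to these exact letters in this window. A match is a description of sequence and not of binding, and looser versions of the element were not searched.

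HSF1 itself acts mainly through its activation, which RNA levels do not show. Hsf1 was at 7.91 TPM in the KO pool against 8.04 TPM in WT, which is -0.02 on the log2 scale (interval -0.28 to 0.25). Hsf2, a related factor that can form mixed trimers with it, was at 15.61 TPM (KO) and 17.76 TPM (WT), a change of -0.18 (interval -0.33 to -0.01). Of 9 expressed factors and regulators, 6 lay below 0, against 53.8% of expressed genes, and 0 passed the fold threshold. Their intervals lay below 0 for 1 and above 0 for 1, against 13.4% and 11.7% of expressed genes, and held 0 for 7. The median was -0.02, from Hsf2 to Ssbp1 at 0.27 (interval 0.09 to 0.51).

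The other chaperones of the cytosol are given by their counts. Of expressed genes, 53.8% lay below 0, 13.4% had an interval below 0 (18.8% at 10 TPM or more) and 11.7% had one above 0. Of 26 further expressed genes of the HSP70 system, 21 lay below 0, 8 had an interval below 0 and 1 above, and the median was -0.08. These counts include Sil1 (-0.04, interval -0.13 to 0.09), an exchange factor that acts in the ER and not in the cytosol. The list ran from -0.29 for Bag2 (its interval holds 0) to 0.35 for Dnajb5 (interval 0.04 to 1.04). Of 19 genes of HSP90 and its co-chaperones, 15 lay below 0, 6 had an interval below 0 and 1 above, with a median of -0.12. The lowest was Fkbp5, a co-chaperone of steroid receptors known to be induced by glucocorticoids, at 50.62 TPM in the WT pool and 34.86 TPM in that of KO (-0.53, interval -0.61 to -0.44), and the highest was Unc45a at 0.22. The cytosolic chaperonin TRiC and its partner prefoldin had a median of -0.07 over 13 genes, 11 of them below 0, from Vbp1 at -0.24 to Cct5 at 0.02, with 1 interval below 0. The 4 expressed genes listed as small heat shock genes other than Hspb1 lay between -0.42 for Cryab and -0.08 for Hspb11. Of their intervals, 1 lay below 0 and 3 held 0, that of Cryab (-1.44 to 0.04) among them. Hspb11 is listed by its symbol and encodes a subunit of the intraflagellar transport complex. No gene of these 4 lists passed the fold threshold in either direction.

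Mitochondrial chaperones and proteases had a median of -0.01 over 18 genes, with 10 below 0, near the 53.8% of expressed genes, and 8 above. Their intervals lay below 0 for 1 gene and above 0 for 3, against 13.4% and 11.7% of expressed genes, and held 0 for 14. The difference from the cytosolic lists was not tested. Hspa9, the mitochondrial HSP70 that pulls proteins in, was at 289.52 TPM in the KO pool against 297.70 TPM in WT, with a log2 ratio of -0.04 (interval -0.06 to 0.01). The list ran from -0.15 for Dnlz to 0.23 for Clpx, the unfoldase of the matrix protease ClpXP, whose interval of 0.19 to 0.29 lay above 0.

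ER chaperones, which answer mainly to the unfolded protein response of that compartment, are given beside them. All 18 lay below 0, against 53.8% of expressed genes, and 16 had an interval below 0, against 13.4% (18.8% at 10 TPM or more), with a median of -0.23, from Manf at -0.62 to Sdf2l1 at -0.03. Hspa5, the HSP70 of the ER, was at 420.31 TPM (KO) and 612.02 TPM (WT), a log2 change of -0.54 (interval -0.56 to -0.50), against -0.17 for its cytosolic counterpart Hspa8. These are levels in 1 library per genotype, and the difference between the lists was not tested.

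**Figure D4:**
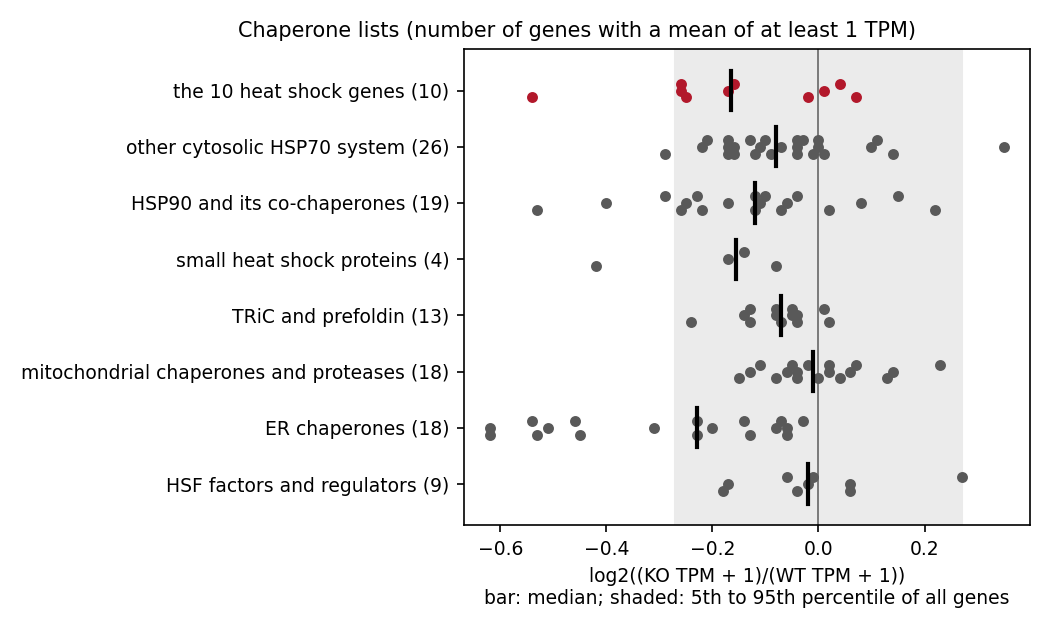
Log2((KO TPM + 1)/(WT TPM + 1)) of each expressed gene (dots) in the heat shock genes and 7 other chaperone lists, with the number of genes in brackets and a bar at the median. The median of the heat shock genes lies at -0.17, those of the other cytosolic lists between -0.15 and -0.07, that of ER chaperones at -0.23, and those of mitochondrial chaperones and of HSF factors at -0.01 and -0.02. The list of the other HSP70 system includes Sil1, which acts in the ER. The grey band is the 5th to 95th percentile of all genes.

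Transcripts of several cytosolic chaperones are known to vary over the day in mouse liver, and the hour at which livers for RNA were taken is not given in the sources used here. Clock genes that peak near dusk were lower in KO in 9 of 9, against 53.8% of expressed genes below 0. Of their intervals, 7 lay below 0, against 13.4% of expressed genes, and 2 held 0. The median was -0.35, from Ciart at -0.57 to Per2 at -0.07. Those that peak near dawn were higher in 6 of 6, against 5319 of 11623 expressed genes above 0. Intervals lay above 0 for 5 of them, against 11.7% of expressed genes, and held 0 for 1. The dawn genes had a median of 0.32, from Clock at 0.03 to Arntl at 0.60. Arntl and Npas2 (0.52) passed the fold threshold upward, as 1.09% of expressed genes did. Cirbp and Rbm3, which mild cooling raises, went opposite ways, at 0.25 (interval 0.02 to 0.56) and -0.25 (interval -0.33 to -0.04). Immediate early genes, which handling can raise, were lower in KO in 10 of 11, against 53.8% of expressed genes. Their intervals lay below 0 for 5 and above 0 for 1, against 13.4% and 11.7% of expressed genes, and held 0 for 5. The median was -0.17. Changes ran from Egr1 at -0.54 to Myc at 0.73, which passed the fold threshold upward, as 1.09% of expressed genes did. The part of these differences in the heat shock values was not tested.

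Markers of other liver cells are given by the same counts, with summed TPM for KO first. Among expressed genes, 53.8% lay below 0, 13.4% had an interval below 0 (18.8% at 10 TPM or more) and 11.7% had one above 0. Endothelial markers were below 0 in 10 of 10 (219 TPM and 239 TPM), with 4 intervals below 0 and 6 that hold 0, from Lyve1 at -0.60 to Stab1 at -0.01. Stellate markers were below 0 in 9 of 11 (294 and 327 TPM), with 5 intervals below 0, 1 above and 5 that hold 0, from Rgs5 at -0.53 to Lrat at 0.17. Kupffer cell markers were above 0 in 9 of 10 (394 and 349 TPM), with 5 intervals above 0 and 5 that hold 0, from Cd68 at -0.26 to C1qa at 0.24. Bile duct markers were below 0 in 3 of 4 expressed genes (62.0 and 66.8 TPM), with 1 interval below 0 and 3 that hold 0, from Epcam at -0.59 to Krt19 at 0.01. Red cell markers were below 0 in 3 of 5 expressed genes (1413 and 1429 TPM), with 1 interval below 0, 2 above and 2 that hold 0. They ran from Hbb-bs at -0.89, which passed the fold threshold downward as 0.301% of expressed genes did, to Hba-a1 at 0.19. Lymphocyte markers summed to 3.73 TPM for KO and 3.56 TPM for WT, and Cd79b (0.42, its interval holds 0) was the only one that averaged 1 TPM or more. Hepatocyte markers were below 0 in 5 of 10 and had a median of 0.00, from Cps1 at -0.13 to Fga at 0.10. These very abundant genes have narrow intervals, of which 4 lay below 0, 6 above and 0 held 0. No marker matched in the table was listed at 0 TPM, but Nkg7 (0.11 TPM for KO, 1.08 TPM for WT) had 0 estimated reads in KO against 12.0 in WT and is named after its values were seen. The part of these cells in the heat shock values was not tested.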

How the data were processed

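Per the labels and the methods of the study, the authors made stranded total RNA libraries, converted reads with CASAVA 1.8.2, and aligned and quantified them against mm10 with RSEM 1.2.09 and Bowtie, which divides reads with several possible origins. The authors deposited posterior mean TPM values, which keep no depth. The authors also deposited EBSeq output, whose size-factor scaled means (unit: signal) were used for depth and counting error. Its columns C1 and C2 were read as KO and WT from the named order of the comparison. Its probability and fold columns hold the authors' own comparison and were not used. The filter between 24054 and 16318 genes is not given in the sources used here.

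The most frequent value in each column of means, 1.16 in KO and 0.860 in WT, was taken as 1 read. Within 0.02, 78.6% of KO and 75.0% of WT values were whole reads, so whole reads were not recovered and no count test was run. Reads were rounded for the intervals. A pseudocount of 1 TPM and a minimum mean of 1 TPM were used.

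The genes and lists were chosen with earlier results of these data known. Named were all 10 genes, Pgrmc1, 7 further genes by name, and of each other list the lowest, the highest and every gene past the fold threshold. Sil1 was named besides, for its compartment. Of the listed symbols, Pfdn6, Adgre1 and Trbc2 were not matched in the table. Gene positions and transcripts are from GENCODE M21 and promoters from RefSeq, both GRCm38. The calls and intervals were tested on simulated counts with counting error alone. Variation among mice and reads divided between genes were not simulated, so that test says nothing about either. Alternatives were a pseudocount of 0.1 TPM, the authors' means, centring, rescaling without the 50 most abundant genes, other thresholds and minimums, and summed copies. Software was Python 3.11.15, scipy 1.17.1, numpy 2.4.6, matplotlib 3.10.9 and pandas 2.3.3.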

Additional observations from a re-analysis of the deposited data

How the results depend on the processing

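No paired analysis was possible because KO and WT were sequenced as a single pool each, so no library was left out in turn either. The median of the 10 heat shock genes ran from -0.17 to -0.15 under all settings run on it, and the median of all genes from -0.015 to 0, so scaling put these values to little test. Of the 10 genes, 1 (Hspa1a) was down with a threshold of 1/1.4, 1 with 0.1 TPM as pseudocount and 1 with the authors' means, in place of 0. The change of Hspa1a ran from -0.79 with the authors' means to -0.09 summed with Hspa1b. Of 42 values of single heat shock genes under these settings, the summed one alone moved by more than its counting error and 0 turned direction. The log2 ratio of summed TPM was -0.12, and -0.04 without Hspa8. Pgrmc1 was at -10.25 with 0.1 TPM and -10.44 with the authors' means.

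Among all genes, 127 were up and 35 down. With 0.1 TPM these were 266 and 70, with the authors' means 294 and 80, with folds of 2 and 0.5 31 and 13, and over genes averaging 10 TPM or more 48 and 17. With 1/1.4 as the lower threshold 118 were down. The median of red cell markers turned to 0.04 with the authors' means, and its cause was not tested.

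Hspa1a is limited by its 62.1 estimated reads in KO and by the sequence that it shares with Hspa1b. For the abundant genes the pooling of mice is the limit.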
